A study of Rattus norvegicus with 4 samples.

Results

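The TGF-beta ligands, receptors and Smads were read in the rat left ventricle as all probe sets that carry the gene symbol of Tgfb1, Tgfb2, Tgfb3, Tgfbr1, Tgfbr2, Tgfbr3, Smad1, Smad2 or Smad4. The array held 14 such probe sets for 8 of these 9 genes, out of 8799 probe sets in all. Of these, 7006 carry a single gene symbol, and they stand for 4736 genes. No probe set carries the symbol Tgfbr2, so the type II receptor was not analysed here. The rule goes by gene name and uses no measured value, but the members were chosen with earlier results of these data known.

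Total RNA of the ventricle was hybridised to 4 Affymetrix RG U34A arrays, with 1 array for each of 4 groups. SD control is a Sprague Dawley rat. dTGR is a double transgenic rat that overexpresses human renin and human angiotensinogen, the enzyme and the precursor from which angiotensin peptides are made, and that dies of organ damage after 7 weeks with high blood pressure, an enlarged heart and protein in the urine. Losartan-treated dTGR received losartan, which blocks the angiotensin II type 1 receptor. Terminal heart failure is named by its stage alone. Its label gives no genotype, but all 4 samples, the control included, carry the description of the double transgenic rat. The sources used here name no promoter of the transgenes, age, sex, dose, duration of treatment or number of animals behind an array. With 1 array a group there is no error between replicates and no test, so each difference is a size that describes the arrays compared. Unless said otherwise, a run of 4 values follows the order of control, dTGR, losartan and terminal array.

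TGF-beta ligands are made as precursors that stay bound to a latency peptide until they are released. The active ligand binds the type II receptor, which phosphorylates the type I receptor Tgfbr1, and betaglycan, encoded by Tgfbr3, presents ligand to them. Tgfbr1 phosphorylates Smad2, which enters the nucleus with the shared partner Smad4, while Smad1 mainly serves the receptors of bone morphogenetic proteins. In the heart the pathway is known for its part in fibroblast activation and matrix deposition, and angiotensin II is known to raise Tgfb1 in heart cells.

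Tgfb2, and Smad1 by 1 of its probe sets, had their highest values on the 2 untreated disease arrays and Tgfb1 had its lowest value in terminal heart failure, so the 250 bases before their start sites were read from the RefSeq promoter table of build GRCr8, which holds all 9 genes. The start in that table is not always the outermost one of the annotated gene. The Tgfb1 window lies wholly before the gene, 112 bases of the Smad1 window lie inside the gene, and the Tgfb2 window lies wholly inside it. Printed here are the bases outside the annotated genes, which are chr1:90324062-90324311, plus strand, for Tgfb1 and chr19:45417292-45417429, plus strand, for Smad1, in lower case because no motif searched was found in them.
Tgfb1: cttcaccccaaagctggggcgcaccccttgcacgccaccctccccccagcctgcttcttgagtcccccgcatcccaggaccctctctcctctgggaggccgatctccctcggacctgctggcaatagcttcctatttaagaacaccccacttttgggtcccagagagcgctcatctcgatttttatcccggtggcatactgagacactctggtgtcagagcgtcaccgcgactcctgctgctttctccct
Smad1: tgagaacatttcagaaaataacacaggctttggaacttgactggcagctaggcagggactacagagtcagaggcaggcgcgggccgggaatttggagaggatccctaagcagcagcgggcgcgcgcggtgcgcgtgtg
Both strands were searched for 6 motifs, and each is given with the share of 33469 rat promoter windows of the same length that hold it. The cAMP response element TGACGTCA was in 1.59% of them. The AP-1 site TGANTCA was in 6.34%. The GC box GGGCGG was in 30.5%. The TATA box TATAAA was in 12.9%. The palindromic Smad box GTCTAGAC was in 0.173%. The shorter Smad motif CAGACA was in 17.2%. The Smad1 window held 2 copies of GGGCGG, which begin 96 and 52 bases before the table's start, both in its part inside the annotated gene and not overlapping. The windows of Tgfb1 and Tgfb2 held none of these letters. A match is a run of letters and not a binding site, and the absence of a match concerns these letters in this window alone.

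The deposited intensities were scaled to a common trimmed mean, and the 40th percentile of all values, 26.0, was used as the lowest readable level and is called the floor. A difference is given as log2 of the first array over the second, where any value under the floor counts as the floor. A fold with 1 value at the floor is a lower bound, written "at least", and a probe set is called higher or lower from 2-fold on. Levels of different probe sets are not compared, since they depend on the probes. Of the 14 member probe sets, 13 were above the floor on at least 1 array and 6 on all 4. The arrays had medians of 38.7 to 47.4, the highest on the dTGR array, and 63.5% of that array's probe sets lay above the floor against 58.2% to 59.1% on the others. Instrument records place SD control and dTGR in the same chip lot and losartan-treated dTGR and terminal heart failure in another. Terminal heart failure was hybridised on another day, and the dTGR array is recorded with a fluidics protocol of its own, with 0 cycles of the first washes and 0 seconds of first stain where the others had 10 and 4 cycles and 600 seconds. Lot, day and protocol cannot be told apart from group in the comparisons they cross. Of 2990 probe sets with a mean intensity under 100 and a value above the floor, 41.0% had their highest value on the dTGR array, against 24.0% of 2354 brighter ones.

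**Figure D1:**
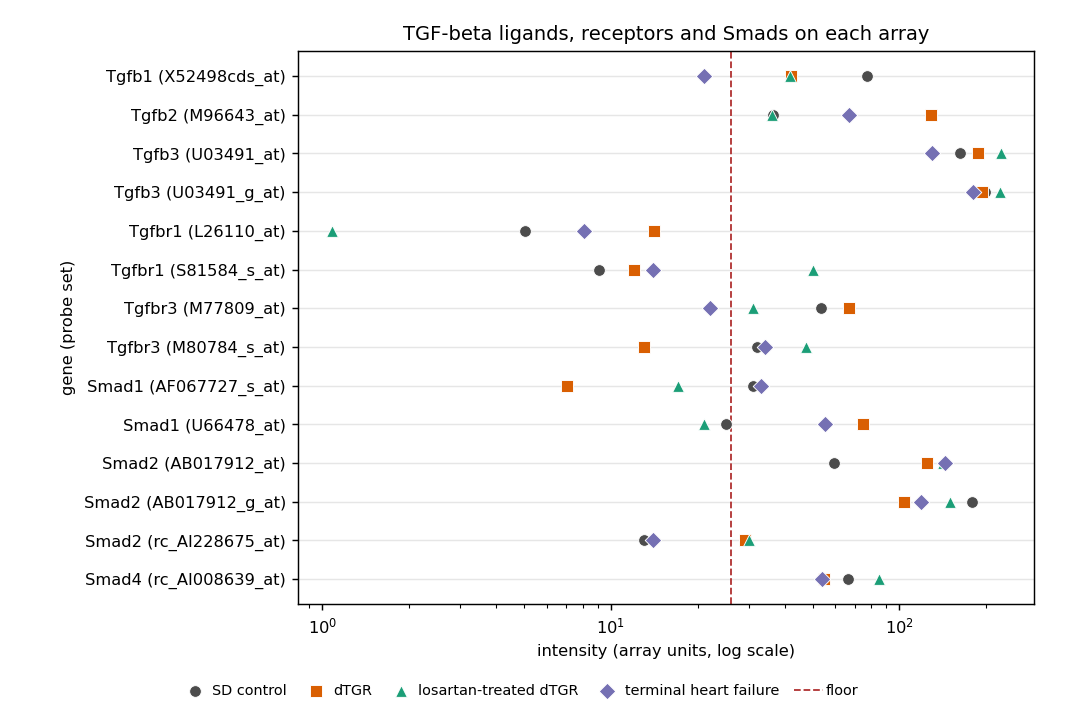
Intensity of each member probe set (log axis, array units) on the 4 arrays, with 1 symbol an array and the floor of 26.0 as a dashed line. Tgfb2 lies at 129 on the dTGR array and 67.0 in terminal heart failure against 36.5 and 36.2 on the other arrays, while Tgfb1 runs from 77.3 in SD control to under the floor in terminal heart failure.

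The 3 ligands had different orders over the arrays. Tgfb2, a ligand needed for heart development that is also induced in stressed heart muscle, was read by probe set M96643_at at 36.5 in SD control, 129 in dTGR, 36.2 in losartan-treated dTGR and 67.0 in terminal heart failure. The dTGR value was the highest, the terminal value came next, and the control and losartan values were nearly equal. Tgfb2 was 3.53-fold higher in dTGR than in SD control (log2 difference 1.82), a size reached by 1.04% of the 5014 probe sets tested. It was 3.56-fold lower in losartan-treated dTGR than in dTGR (-1.83), a size reached by 1.52% of 5058. Terminal heart failure stood 1.84-fold above SD control and 1.85-fold above losartan-treated dTGR and 1.92-fold below dTGR, all short of 2-fold. Under cyclic loess the first of these passed it (1.04). Both differences past 2-fold thus rest on the dTGR array. Its high share of dim probe sets stands beside them, and its part in them was not tested.

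Tgfb1, the ligand most tied to fibrosis, was read by probe set X52498cds_at at 77.3 in SD control, 42.1 in dTGR, 41.6 in losartan-treated dTGR and 21.0 in terminal heart failure, the last under the floor. The control array was the highest and the terminal array the lowest, and the dTGR and losartan values were alike. Against SD control, Tgfb1 was 1.84-fold lower in dTGR (-0.88), 1.86-fold lower in losartan-treated dTGR (-0.89) and at least 2.97-fold lower in terminal heart failure (-1.57), and only the last passed 2-fold. Within the lot of the terminal array it was at least 1.6-fold below losartan-treated dTGR. Losartan-treated and untreated dTGR differed by 1.01-fold. After scaling to the same median or quantile normalization, the difference between dTGR and SD control also passed 2-fold (up to -1.12).

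Tgfb3, the remaining ligand, had 2 probe sets and differed least of the 3. U03491_at gave 162 in SD control, 187 in dTGR, 224 in losartan-treated dTGR and 130 in terminal heart failure. U03491_g_at gave 197, 194, 223 and 181 in the same order. Both probe sets had the losartan array highest and the terminal array lowest, with ranges of 1.72-fold and 1.24-fold over the 4 arrays, and neither passed 2-fold in any of the 6 comparisons. The losartan and terminal arrays share a chip lot, and within it Tgfb3 was 1.72-fold and 1.24-fold lower in terminal heart failure.

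The receptors were read near or under the floor. Tgfbr1, the type I receptor kinase, was under the floor on all 4 arrays by probe set L26110_at, with values of 1.08 to 14.1. Its other probe set, S81584_s_at, read 50.3 in losartan-treated dTGR and 9.06 to 14.0 on the other arrays, all under the floor. It was therefore at least 1.93-fold higher in losartan-treated dTGR than on each of the other arrays, short of 2-fold with this floor, and past 2-fold after each of the 3 other scalings and with a lower floor or none. L26110_at, unread on every array, gives no order to set beside this.

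Tgfbr3, which encodes betaglycan, was read at 53.5 in SD control, 66.7 in dTGR, 31.1 in losartan-treated dTGR and 22.0 in terminal heart failure by probe set M77809_at. By these values it was highest in dTGR and under the floor in terminal heart failure. It was at least 2.06-fold lower in terminal heart failure than in SD control, at least 2.56-fold lower than in dTGR, and 2.15-fold lower in losartan-treated than in untreated dTGR. The last difference fell short of 2-fold under all 3 other scalings. The other probe set, M80784_s_at, gave 32.2, 13.1, 47.4 and 34.3, with dTGR lowest and losartan highest, and no difference past 2-fold with this floor. With a lower floor or none it was lower in dTGR than on the 3 other arrays by over 2-fold. For losartan-treated dTGR against SD control, the comparison in which both probe sets could be read on both arrays, they differed by 1.34 on the log2 scale (-0.78 and 0.56). A gap that wide was found in 6.90% of 1247 pairs of probe sets of the same gene, and the direction of Tgfbr3 was not settled.

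Among the Smads, Smad1 was higher on both untreated disease arrays by 1 of its 2 probe sets. U66478_at read 25.1 in SD control and 74.7 in dTGR, with 21.1 after losartan and 55.1 in terminal heart failure. Both untreated disease arrays were above the floor and both others were under it. Against SD control, Smad1 by this probe set was higher by at least 2.87-fold in dTGR and by at least 2.12-fold in terminal heart failure, with the same bounds against losartan-treated dTGR. The terminal comparisons do not use the dTGR array. Of 5344 probe sets above the floor on at least 1 array, 40 (0.749%) were at least 2-fold above both SD control and losartan-treated dTGR on both untreated disease arrays, and this was the single member among them. The other probe set, AF067727_s_at, read 31, 7.03, 17.1 and 33.2, with dTGR the lowest, and passed 2-fold in no comparison with this floor. Its dTGR value lies under the floor and its control value barely above it, so for dTGR against SD control it gives a bound of -0.25. With a lower floor or none, AF067727_s_at was called lower in dTGR than in SD control (down to -2.14). With the same floors it was called higher in terminal heart failure than in dTGR (up to 2.24). For dTGR the size of its difference from U66478_at cannot be read, and the direction of Smad1 in dTGR was not settled. For terminal heart failure against SD control AF067727_s_at gave 0.10, with both values just above the floor, where U66478_at gave at least 1.08. Whether Smad1 was higher in terminal heart failure was thus not settled either.

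Smad2, the Smad that carries the TGF-beta signal from Tgfbr1, had 3 probe sets. AB017912_at read 59.5 in SD control, 125 in dTGR, 141 in losartan-treated dTGR and 144 in terminal heart failure. The control array was the lowest and the other arrays lay close together, at 2.1-fold, 2.37-fold and 2.42-fold above it. The first of these fell short of 2-fold after scaling to the same median. AB017912_g_at, built on the same sequence record, read 178, 104, 150 and 119, with the control array the highest. Against SD control it was 1.72-fold, 1.19-fold and 1.5-fold lower on the dTGR, losartan and terminal arrays, and the first of these passed 2-fold after scaling to the same median (-1.02). The 2 probe sets thus gave opposite directions against the control, with gaps of 1.85, 1.5 and 1.86 on the log2 scale. Gaps that wide were found in 3.12%, 4.25% and 2.86% of pairs of probe sets of the same gene. Among the 3 transgenic or failing ventricles they differed by 0.36 at most. The last probe set, rc_AI228675_at, read 13.0, 29.1, 30.1 and 14.0 of which 13.0 and 14.0 lay under the floor and the others just above it. With a lower floor or none it was called higher in dTGR and in losartan-treated dTGR than in SD control (up to 1.16 and 1.20). A direction for Smad2 against the control was not settled.

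Smad4, the partner shared by all receptor-regulated Smads, had 1 probe set, rc_AI008639_at, which read 66.2 in SD control, 54.8 in dTGR, 84.9 in losartan-treated dTGR and 54.0 in terminal heart failure. The losartan array was the highest and both untreated disease arrays the lowest. The widest difference was 1.57-fold, between losartan-treated dTGR and terminal heart failure, and no comparison passed 2-fold.

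**Figure D2:**
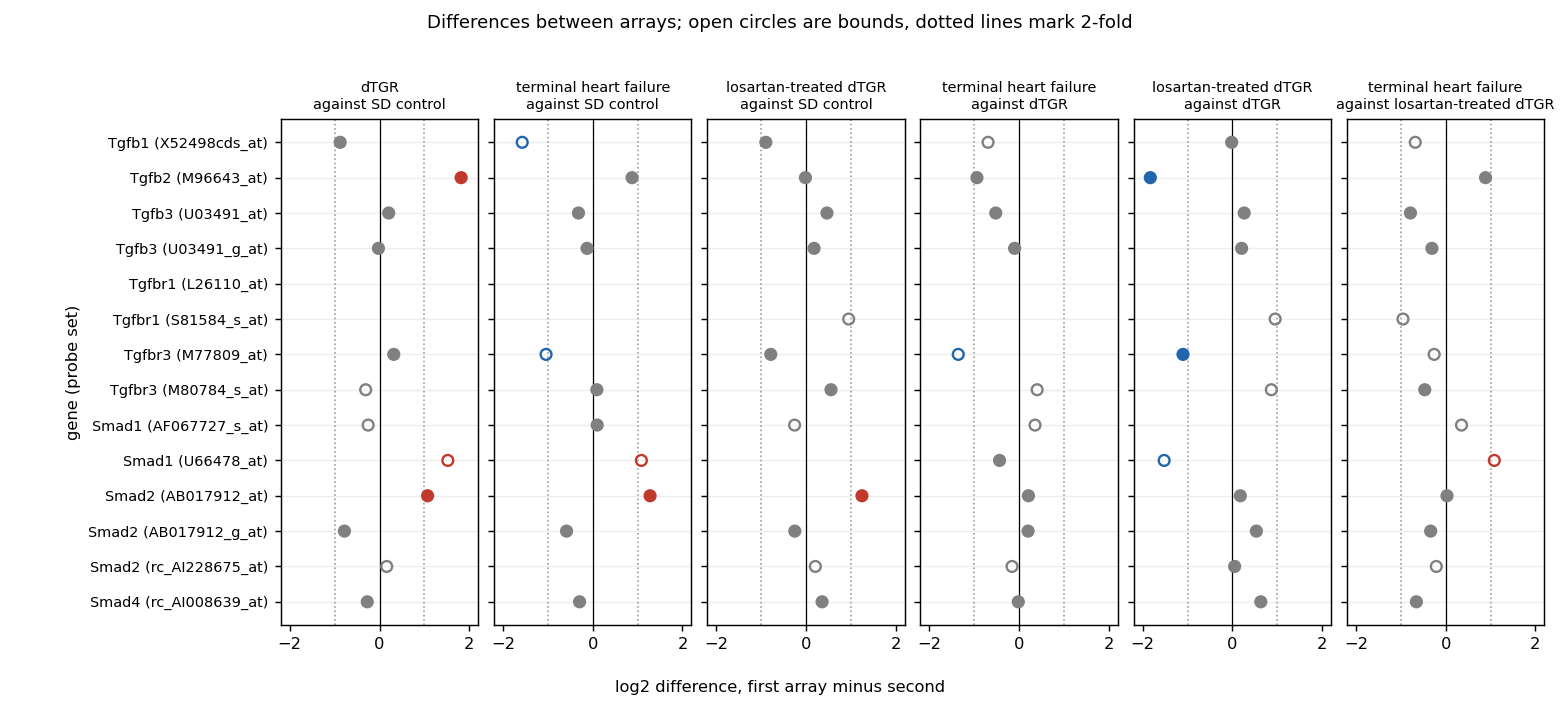
Log2 difference of each member probe set in the 6 comparisons, first array minus second. Filled circles have both values above the floor and open circles are bounds, red and blue mark at least 2-fold higher and lower, dotted lines mark 2-fold, and no point is drawn where both values lie under the floor. Red and blue points are few, and the pairs of Smad1, Smad2 and Tgfbr3 probe sets with the widest differences lie on opposite sides of 0 for dTGR against SD control (1.52 and -0.25, 1.07 and -0.78, 0.32 and -0.31).

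Among probe sets that reached the floor on either array of a pair, 3 of 12 members were higher in dTGR than in SD control and 0 were lower, against 7.98% and 6.14% of all 5014 probe sets tested. After scaling to the same median the members split into 2 higher and 2 lower, the lower ones being Tgfb1 and Smad2 by AB017912_g_at. All probe sets went from 400 higher and 308 lower to 237 and 530 with that scaling. For terminal heart failure against SD control, 2 of 11 members were higher and 2 lower, against 7.36% and 8.58% of 4685. For losartan-treated dTGR against SD control, 1 of 12 was higher and 0 lower, against 2.73% and 6.15% of 4682. With the floor at the 60th percentile, 66.2, calls of Smad2 by AB017912_at in the last 2 comparisons were the only ones left of all 13 member calls. The member medians were 0.07, -0.13 and 0.19 on the log2 scale in these comparisons, and those of all probe sets tested were 0.05, -0.11 and -0.02. All 3 comparisons share the control array.

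Among the transgenic and failing ventricles, terminal heart failure against dTGR had 0 of 12 members higher and 1 lower, against 8.28% and 11.3% of 5036. Losartan-treated against untreated dTGR had 0 of 12 higher and 3 lower, against 5.79% and 10.4% of 5058. After each of the 3 other scalings 1 was higher and 2 lower. The 3 were Tgfb2, Smad1 by U66478_at and Tgfbr3 by M77809_at, and all 3 had their highest value on the dTGR array. Terminal heart failure against losartan-treated dTGR had 1 of 13 higher and 0 lower, against 8.94% and 6.80% of 4722, and 1 higher and 1 lower after each other scaling. The medians were -0.13, 0.19 and -0.31, against -0.16, -0.08 and -0.07 over all probe sets tested. With 11 to 13 members read in a comparison, a difference of 1 or 2 probe sets from the background share is small.

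Of the 6 comparisons, dTGR against SD control and terminal heart failure against losartan-treated dTGR each lie within a chip lot, and they share no array. The first still crosses the fluidics protocol, and the other still crosses the day of hybridisation. Smad1 by U66478_at was higher in both (at least 2.87-fold and 2.12-fold), the 1 member of 12 to be so, against 1.43% of 4392 probe sets, and 0 members were lower in both, against 1.09%. The other Smad1 probe set, AF067727_s_at, gave bounds of -0.25 and 0.35 and was called in neither. Tgfb2 stood at 1.82 and 0.89 in these comparisons and Tgfb1 at -0.88 and -0.68, the last a bound. Smad2 by AB017912_at stood at 1.07 and 0.03.

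**Figure D3:**
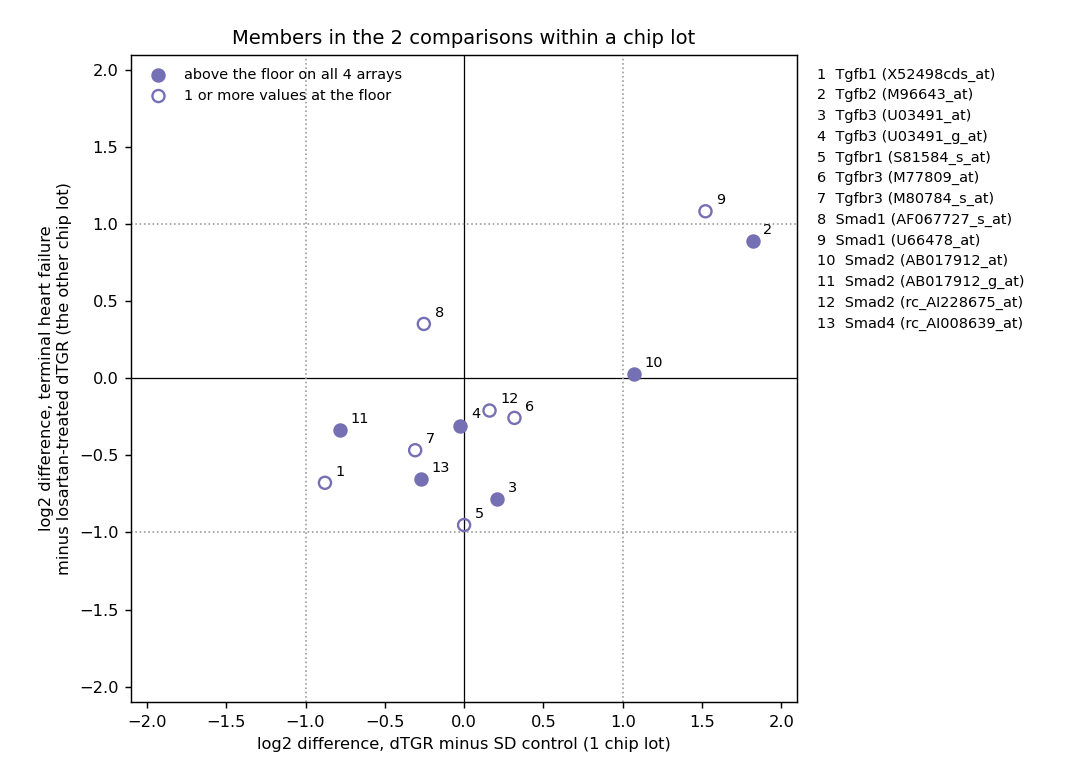
Log2 difference of dTGR minus SD control (horizontal) against terminal heart failure minus losartan-treated dTGR (vertical) for the 13 member probe sets above the floor on at least 1 array. Open circles have 1 or more values at the floor and dotted lines mark 2-fold. Smad1 (U66478_at, 1.52 and 1.08) and Tgfb2 (1.82 and 0.89) lie apart at the upper right, while the other Smad1 probe set lies at -0.25 and 0.35.

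The profile of Tgfb2 had the largest range among members above the floor on all 4 arrays. Over 3461 probe sets of other genes above the floor throughout, the 5 closest profiles, by root mean square distance of centred log2 values over the 4 arrays, were those of Mapk4 (0.10), Pex14 (0.11), Plcb3 (0.16), Actg2 (0.21) and Scarb1 (0.21). Mapk4, an atypical MAP kinase, read 41.9, 128, 40.2 and 64.8. With 4 arrays, such likeness describes the order and spacing of 4 values.

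The rest of the pathway was taken from 5 gene lists, which were also chosen with earlier results of these data known. The genes that TGF-beta is known to induce went both ways. Their 65 probe sets for 35 genes had 15 of 56 higher and 11 lower in terminal heart failure than in SD control, 7 of 55 higher and 5 lower in dTGR, and 0 of 52 higher and 8 lower in losartan-treated dTGR. Over all probe sets the shares higher and lower were 7.36% and 8.58% for terminal heart failure, 7.98% and 6.14% for dTGR and 2.73% and 6.15% for losartan-treated dTGR. The list's shares were 26.8% and 19.6%, 12.7% and 9.09%, and 0% and 15.4%. These shares count probe sets and not genes. In terminal heart failure the 11 lower were probe sets of Col1a1, Col3a1, Col15a1, Sparc, Id2 and Acta2 alone. The 15 higher included all probe sets of Lox and of Timp1. After scaling to the same median dTGR had 7 higher and 10 lower, which turns the balance. The balance of all probe sets turned with it, from 400 higher and 308 lower to 237 and 530. The list medians were 0.05, -0.13 and -0.34 on the log2 scale, against -0.11, 0.05 and -0.02 over all probe sets tested. Timp1, an inhibitor of matrix metalloproteinases, read 56.2, 308, 69.7 and 1684 by probe set rc_AI169327_g_at. It was 30.0-fold higher in terminal heart failure and 5.49-fold higher in dTGR than in SD control, and its other probe set gave log2 differences of 3.65 and 1.63. Lox, which crosslinks collagen, was 4.83-fold higher in terminal heart failure than in SD control by S66184_s_at, and the other 3 probe sets gave log2 differences of 1.37 to 2.11.

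Several collagens of the same list were lower in terminal heart failure than in SD control. Col3a1, a fibrillar collagen, was 5.35-fold lower by M21354_s_at (-2.01 by its other probe set), and Col15a1, found near basement membranes, was 5.66-fold lower. All 4 probe sets of Col1a1, named after its values were seen, were lower, with log2 differences of -1.43 to -1.08, while Col1a2 stood at -0.42 and Col5a2 at 0.54. Col8a1, a short-chain collagen, went the other way and stood at 1.86 in terminal heart failure, with 27.1 in SD control, 86.0 in dTGR, 17.0 after losartan and 97.9 in terminal heart failure. In dTGR, Col8a1 was 3.18-fold higher and Tsc22d1, a transcription factor first found as a TGF-beta-stimulated gene, was 2.38-fold higher than in SD control. Id2, an inhibitor of helix-loop-helix factors that answers mainly to bone morphogenetic proteins, was 3.34-fold lower. After losartan, Timp1 was 4.42-fold lower than in untreated dTGR by rc_AI169327_g_at (-1.06 by its other probe set). Junb, a component of AP-1, was 4.08-fold lower by X54686cds_at (-0.54 by its other probe set). Timp3, a matrix-bound metalloproteinase inhibitor, was 3.73-fold lower, with a losartan value of 30.1 just above the floor. Id2 was 4.0-fold higher after losartan. Of 54 probe sets of the list, 3 were higher and 11 lower in losartan-treated than in untreated dTGR. Terminal heart failure had 11 of 57 higher and 7 lower than dTGR, and 18 of 56 higher and 6 lower than losartan-treated dTGR. The list's shares higher and lower were thus 5.56% and 20.4%, 19.3% and 12.3%, and 32.1% and 10.7%. Over all probe sets they were 5.79% and 10.4%, 8.28% and 11.3%, and 8.94% and 6.80%. The list medians in these 3 comparisons were -0.39, 0.19 and 0.30, against -0.08, -0.16 and -0.07 over all probe sets tested.

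Genes of ligand latency, activation and binding were read by 30 probe sets for 17 genes. Against SD control, 3 of 23 were higher and 1 lower in dTGR, 2 of 24 higher and 0 lower in terminal heart failure, and 0 of 19 higher and 1 lower in losartan-treated dTGR. The list's shares higher and lower were 13.0% and 4.35% in dTGR and 8.33% and 0% in terminal heart failure, beside 7.98% and 6.14%, and 7.36% and 8.58%, of all probe sets. In losartan-treated dTGR they were 0% and 5.26%, beside 2.73% and 6.15% of all probe sets. After scaling to the same median dTGR had 2 higher and 4 lower, which turns the balance. The balance of all probe sets turned too, from 400 higher and 308 lower to 237 and 530. The medians were -0.06, 0.15 and 0.10. Plau, the urokinase that activates plasmin, was 2.44-fold higher in dTGR than in SD control. Plat, the tissue plasminogen activator, read 167, 87.8, 232 and 429. It was 2.58-fold higher in terminal heart failure than in SD control and 4.89-fold higher than in dTGR. Ltbp1, which tethers latent TGF-beta to the matrix, was 2.33-fold lower in terminal heart failure than in dTGR and 2.30-fold lower than in losartan-treated dTGR. Furin, the protease that cleaves the TGF-beta precursor, was 4.74-fold lower in losartan-treated dTGR than in SD control by X55660_at, while X55660_g_at gave 0.10.

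Other Smads and their partners were read by 5 probe sets for 5 genes. None passed 2-fold in any comparison with this floor, and 3 or 4 of the 5 were above the floor on at least 1 array of each pair. Smad3, which carries the TGF-beta signal beside Smad2, read 16 in SD control, 50.8 in dTGR, 20.1 in losartan-treated dTGR and 36.8 in terminal heart failure. It was above the floor only on the untreated disease arrays, with log2 bounds of 0.97 and 0.50 above the control. With the floor at the 25th percentile, 1 probe set of the list was called higher in dTGR than in SD control, and terminal heart failure had 2 higher and 1 lower. Smad7, an inhibitor of the pathway, was under the floor on all 4 arrays, with values of 7.01 to 10.

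The bone morphogenetic protein, activin and inhibin branch, to which Smad1 belongs, was read by 38 probe sets for 28 genes. Of these, 2 of 21 were higher and 2 lower in dTGR than in SD control, 3 of 23 higher and 1 lower in terminal heart failure, and 0 of 18 higher and 2 lower in losartan-treated dTGR. In dTGR 9.52% were thus higher and 9.52% lower, and in terminal heart failure 13.0% and 4.35%, near the 7.98% and 6.14%, and 7.36% and 8.58%, of all probe sets. In losartan-treated dTGR the shares were 0% and 11.1%, beside 2.73% and 6.15% of all probe sets. The medians were 0.38, -0.30 and -0.03. Bmpr1a, a type I receptor for bone morphogenetic proteins, read 38.9, 77.9, 32.5 and 31.4. Its dTGR value was 2.0-fold above the control and short of 2-fold under the 3 other scalings. Acvrl1, an endothelial type I receptor, was 2.33-fold lower in dTGR than in SD control. Bmp6, a ligand, was 2.49-fold lower in terminal heart failure than in dTGR by X58830_at and -1.08 by its other probe set. In terminal heart failure against dTGR, 4 of 25 were higher and 8 lower, against 8.28% and 11.3% of all probe sets. This balance turned to 5 higher and 4 lower after scaling to the same median, and was 5 and 6 after quantile normalization and 5 and 5 after cyclic loess. All probe sets went from 417 higher and 568 lower to 656 and 298 after scaling to the same median. They had 504 and 432 after quantile normalization, and 534 and 376 after cyclic loess.

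Kinases and adaptors of the branch that runs without Smads were read by 37 probe sets for 15 genes, with 2 of 30 higher and 3 lower in dTGR than in SD control, 3 of 30 higher and 1 lower in terminal heart failure, and 0 of 29 higher and 5 lower in losartan-treated dTGR. The shares in dTGR (6.67% higher, 10% lower) and in terminal heart failure (10% and 3.33%) lay near those of all probe sets (7.98% and 6.14%, 7.36% and 8.58%). In losartan-treated dTGR 0% were higher and 17.2% lower, beside 2.73% and 6.15% of all probe sets. The medians were -0.01, 0.05 and -0.11. Rock2, a kinase that acts below Rhoa, was 2.43-fold higher in terminal heart failure than in SD control, with 1.17 by its other probe set. Akt1, a survival kinase, was 2.29-fold lower in terminal heart failure and 3.35-fold lower in losartan-treated dTGR by D30040_at, while its other probe set gave -0.62 and -0.13.

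**Figure D4:**
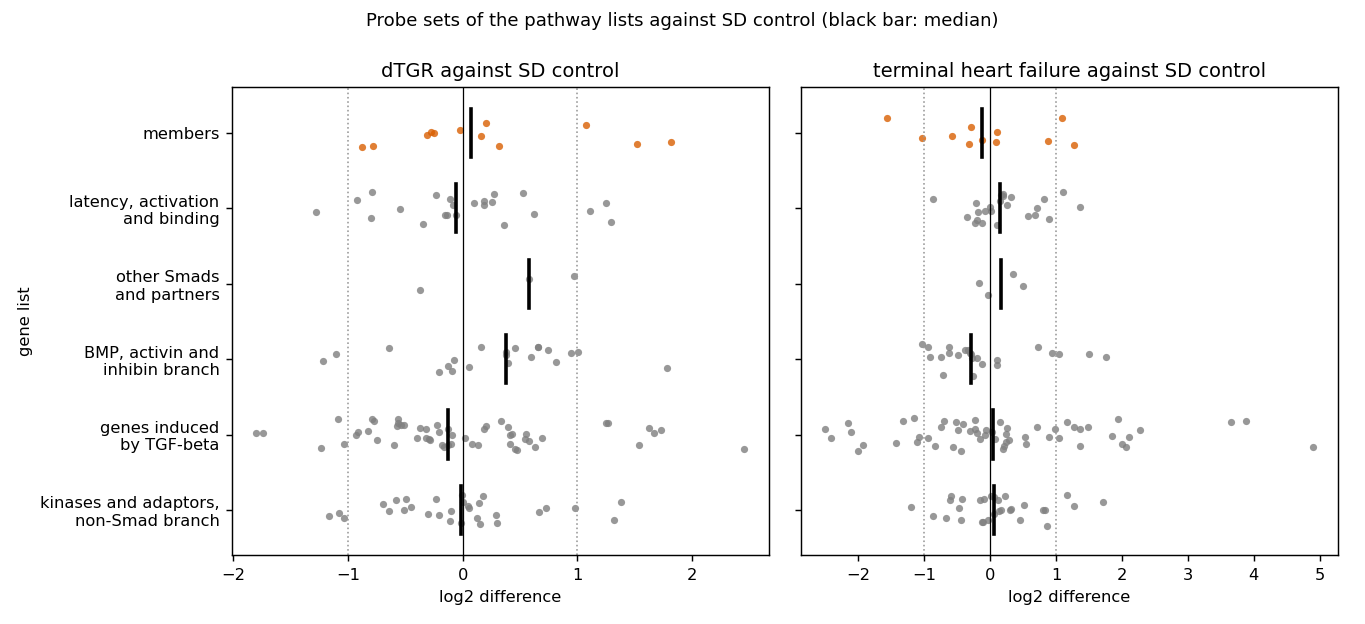
Log2 difference against SD control for dTGR (left) and terminal heart failure (right), with 1 point for each probe set above the floor on at least 1 array of the pair, for the members and 5 pathway lists. Black bars are medians and dotted lines mark 2-fold. All medians lie within 2-fold, and the genes induced by TGF-beta spread the most in terminal heart failure, with 15 higher and 11 lower.

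The ventricle is a mixture of cells, and fewer cells of a type and less RNA a cell cannot be told apart. All 20 probe sets for 11 cardiomyocyte markers were above the floor on every array, with summed intensities of 171781, 329753, 217709 and 159962. Fibroblast markers (9 of 10 genes, 15 to 18 of 20 probe sets above the floor) summed to 23897, 19000, 22167 and 21139. Single markers of the list differed in direction. Dcn by X59859_i_at, which leads the sum, read 7671 in SD control and 11486 in terminal heart failure, and Postn 15.0 and 104, while Lum was 309 and 97.1 and Col3a1 and Col1a1 were lower as given above. Macrophage markers (7 of 11 genes, 11 or 12 of 14 probe sets) summed to 6121, 6040, 5754 and 7178. Here Lyz2 was 583 in SD control and 2122 in terminal heart failure, Lgals3 125 and 556 and C1qb by X71127_g_at 131 and 691, while Cd74 by X13044_at was 1830 and 766. Platelet markers (3 of 6 genes) summed to 538, 335, 362 and 616. Endothelial markers (6 of 9 genes, 5 or 6 of 7 probe sets) summed to 1268, 1054, 867 and 719. Tgfb1 had the same order, though its dTGR and losartan values were nearly equal (42.1 and 41.6). Cav1 (894, 507, 400 and 227) leads the endothelial sum on the control, dTGR and losartan arrays but not in terminal heart failure. Pecam1 was highest in terminal heart failure (248 against 113 to 150), above Cav1 there. Vwf lay under the floor apart from 1 value of 32.6 in dTGR. Smooth muscle markers (5 of 6 genes, 7 or 8 of 10 probe sets) summed to 7899, 10224, 5547 and 8852. Tgfb2 had the same order, though its control and losartan values were nearly equal (36.5 and 36.2). Both likenesses were seen after the values were known. Most of the smooth muscle sum is Des (5576, 8375, 3953 and 6886), which cardiomyocytes also express. T and B cell markers (7 of 9 genes) summed to 261, 320, 153 and 169, with 1 to 5 of 9 probe sets above the floor. Red cell markers (3 of 6 genes) summed to 9736, 16248, 11448 and 12665. Atrial markers (3 of 4 genes, led by Nppa, which failing ventricles also make) summed to 5392, 72839, 18009 and 41056. Skeletal muscle markers (7 of 8 genes, 3 to 5 of 8 probe sets above the floor) summed to 11394, 15977, 12327 and 9303. Nearly all of that sum is Ckm (11227, 15765, 12137 and 9033), which is also on the cardiomyocyte list. No marker value was exactly 0, and the part of these markers in the values of the TGF-beta genes was not tested.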

How the data were processed

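Total RNA of the rat left ventricle was measured on 4 Affymetrix RG U34A arrays, per the labels and the file headers. The authors deposited 1 linear intensity for each probe set and array. The sources used here give neither the software and its settings nor detection calls. The deposited values have trimmed means (lowest and highest 2% left out) of 200.2 to 200.3 on all arrays. Of 15281 values from 1 to under 32, 13625 have the form of a day and month, as a spreadsheet would write them. This moves a value by under 1 unit, and 20 of the 56 member values lie in that range.

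Each array was scaled to the mean trimmed mean, values under the 40th percentile (26.0) were set to it, and log2 was taken (Python 3.11.15, numpy 2.4.6, pandas 2.3.3). The 59 control probe sets, 1426 without a symbol and 308 with several were left out. Symbols came from the platform annotation. For 6985 of 7006 probe sets the RefSeq genes of GRCr8 held the gene, and 0 symbols were updated. Calls need at least 2-fold and 1 value above the floor. The calls were checked on simulated data whose known folds were larger than 2-fold and lay in bright probe sets, with little noise. That check does not cover calls close to 2-fold or values near the floor. Named pathway genes are, for each list and comparison, up to 4 genes with the largest difference past 2-fold above the floor on both arrays, and the text gives some of these. Smad3, Smad7, the other collagens and the markers are named outside that rule, after their values were seen. Alternatives were 3 other scalings (same median, quantile, cyclic loess with statsmodels 0.14.6), 3 other floors, another reading of low values, and 1 probe set a gene. The members and lists were chosen with earlier results of these data known. No accuracy from replicates is available, and the number of arrays limits the precision.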

Additional observations from a re-analysis of the deposited data

How the results depend on the processing

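No called difference of a member probe set turned its direction under any of the 7 alternatives for scaling, floor and low values. A change of floor alone cannot turn a direction, here or in the pathway lists below. Of 13 calls in the 6 comparisons, 2 held under all 7, those of Smad2 (AB017912_at) for terminal heart failure and losartan-treated dTGR against SD control. With the floor at the 60th percentile (66.2), calls fell from 3 to 0 in dTGR and from 4 to 1 in terminal heart failure against SD control, from 1 to 0 in terminal heart failure against dTGR and against losartan-treated dTGR, and from 3 to 0 in losartan-treated against untreated dTGR. The share of all probe sets called fell too. Against SD control it went from 14.1% to 5.99% in dTGR and from 15.9% to 12.9% in terminal heart failure. Against dTGR it went from 19.6% to 11.7% in terminal heart failure and from 16.2% to 8.24% in losartan-treated dTGR. For terminal heart failure against losartan-treated dTGR it went from 15.7% to 12.7%. With that floor the log2 difference of Tgfb2 between dTGR and SD control was 0.96. With the floor at the 25th percentile (11) or no floor except at 1, calls were 6 and 7 in dTGR against SD control, 3 and 4 in losartan-treated dTGR against SD control, 5 and 5 in terminal heart failure against dTGR, 5 and 7 in losartan-treated against untreated dTGR, and 3 and 4 in terminal heart failure against losartan-treated dTGR. The share of all probe sets called grew too, in dTGR against SD control from 14.1% to 24.1% and 32.2%. In losartan-treated dTGR against SD control it grew from 8.89% to 15.1% and 24.4%. For terminal heart failure it grew from 19.6% to 29.4% and 36.1% against dTGR. Against losartan-treated dTGR it grew from 15.7% to 22.7% and 30.2%. In losartan-treated against untreated dTGR it grew from 16.2% to 26.9% and 33.4%. After each of the 3 other scalings, losartan-treated dTGR against SD control and terminal heart failure against losartan-treated dTGR had 2 calls in place of 1, the added call being Tgfbr1 (S81584_s_at). With 1 probe set a gene, losartan-treated dTGR against SD control had 0 calls, since Smad2 is then read by AB017912_g_at. Scaling to the same median moved the median of probe sets above the floor on both arrays from 0.00 to -0.22 in dTGR against SD control, from -0.13 to 0.14 in terminal heart failure against dTGR and from -0.04 to 0.18 in losartan-treated against untreated dTGR. The share of higher among all calls moved with it from 56.5% to 30.9%, 42.3% to 68.8% and 35.7% to 57.8%. In dTGR against SD control it was 47.1% after quantile normalization and 47.5% after cyclic loess. Quantile normalization gave 53.8% and cyclic loess 58.7% for the comparison of terminal heart failure with dTGR, quantile normalization 46.8% for losartan-treated against untreated dTGR, and cyclic loess 56.7% in place of 46.2% for terminal heart failure against SD control. Of 68 named differences of the pathway lists, 41 held their call under all 7 alternatives, chosen for them after seeing the data, and 0 reversed. No paired analysis was possible because each group has 1 array. Values near the floor limit what can be read of Tgfbr1, Tgfbr3 and Smad1.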

Other observations

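Follistatin, a secreted inhibitor of activins and some bone morphogenetic proteins encoded by Fst, stood out after its values were seen. Probe set rc_AA858520_at read 8.09 in SD control, 23.0 in dTGR, 11.1 in losartan-treated dTGR and 87.9 in terminal heart failure, and rc_AA858520_g_at read 6.02, 13.0, 7.01 and 73.5 on the control, dTGR, losartan and terminal arrays. Both probe sets were above the floor in terminal heart failure alone. Spp1, which encodes osteopontin and lies on the list of genes induced by TGF-beta, read 4.08, 86.0, 12 and 384 in the same order. Pmepa1, which encodes a membrane protein that limits TGF-beta signalling and is itself induced by it, read 1478, 1986, 1474 and 2421, and none of its differences reached 2-fold. These values have no replicates and no test.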
